A study of Mus musculus with 20 samples.

Results

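The Plac8 and Hpse locus on mouse chromosome 5 held 15 transcribed enhancers of the 11222 in the deposited table. An enhancer was taken as a member when its midpoint lay between positions 100000000 and 101000000 of chromosome 5 in the mm39 build. The members were chosen by position, but the window itself was selected on the strength of earlier results with these same tag counts, and which of the comparisons was used is not recorded. Levels, changes and test results of the members are therefore given as a description of these libraries.

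The study stimulated bone marrow-derived macrophages of C57BL/6 mice and sequenced the capped 5′ ends of their RNA by no-amplification non-tagging CAGE (nAnT-iCAGE). All groups shared the strain, the absence of a genetic change in the labels and differentiation with macrophage colony-stimulating factor (M-CSF) from the conditioned medium of L929 cells. The 10 groups were unstimulated cells at 0 h, and cells given interferon-γ (IFN-γ), CpG oligodeoxynucleotide (CpG) or both agents for 3, 9 or 15 h. Each group held 2 libraries, which the series calls biological replicates; the labels do not tie libraries to individual mice, and the protocols also describe polarization with IL-4 and IL-10 without stating whether it applies to these libraries. No unstimulated cells were sampled at 3, 9 or 15 h, so stimulation and time in culture cannot be told apart in a comparison with unstimulated cells, and the 9 comparisons of that kind share the same 2 unstimulated libraries. Macrophage marker genes were not checked, since the tables used here hold enhancer regions and no genes.

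Transcribed enhancers give rise to short, capped, unstable RNAs from both strands, and CAGE counts their 5′ ends as tags. IFN-γ is a cytokine of T cells and natural killer cells that acts through its receptor on macrophages and turns on genes for antigen presentation and microbial killing. CpG oligodeoxynucleotide is a ligand of the endosomal receptor TLR9, which signals through MYD88 to NF-κB. Plac8 encodes a small cysteine-rich protein of leukocytes and other cells, and Hpse encodes heparanase, the enzyme that cleaves heparan sulfate chains of the extracellular matrix. In the GRCm38.p6 gene table at hand, the protein-coding genes along this stretch run in the order Lin54, Cops4, Plac8, Coq2, Hpse, Helq, Mrps18c, Abraxas1 and Gpat3. That table is of another build than the enhancers, so no enhancer was assigned to a gene, exon or intron here, and no enhancer sequence is printed.

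The libraries held 12776280 to 13855472 mapped tags, of which 12879 to 29794 (0.0991% to 0.220%) lay in the enhancers of the table. Levels are given in RPM, the tags of an enhancer relative to all mapped tags of its library, as mean ± SD over 2 libraries. Changes marked as log2 come from edgeR's quasi-likelihood test with TMM scaling on the enhancer tags, and a call means an adjusted p (Benjamini-Hochberg, over the 2792 enhancers tested) under 0.05. In bulk libraries, fewer cells with an active enhancer and less RNA per cell cannot be told apart.

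The window's 15 enhancers, named E1 to E15 along the chromosome, were 120 to 520 bp wide and together held 460 tags in the 20 libraries. E1 (chr5:100119058-100119438) and E2 (chr5:100131414-100131796) lay 515533 bp before the next member. E3 (chr5:100647329-100647811), E4 (chr5:100653784-100654064) and E5 (chr5:100657176-100657547) formed a short cluster. A longer stretch followed, with E6 (chr5:100704882-100705200), E7 (chr5:100730469-100730604), E8 (chr5:100735591-100735835), E9 (chr5:100783019-100783321) and E10 (chr5:100784701-100785022). It went on with E11 (chr5:100790990-100791388), E12 (chr5:100791816-100792038), E13 (chr5:100804144-100804664) and E14 (chr5:100812711-100812862). E9 and E10 were 1380 bp apart and E11 and E12 were 428 bp apart, so that neighbours may belong to one regulatory region and are not independent observations. E15 (chr5:100876775-100876895) stood 63913 bp after E14. Positions are as deposited, and no source used here says whether starts count from 0 or 1.

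The 3 highest enhancers by mean level over the 20 libraries were E10 at 0.488 RPM, E12 at 0.171 and E15 at 0.146. E8 (0.141 RPM), E6 (0.118), E11 (0.0999), E4 (0.0896) and E3 (0.0822) came next. Per kb of enhancer, the order began with E10 (1.52 RPM per kb), E15 (1.22), E12 (0.769), E8 (0.579) and E7 (0.544), and E13 was lowest on both scales with 0.0367 RPM and 0.0706 RPM per kb. This order weighs the 12 libraries with IFN-γ most. In unstimulated cells E3 (0.148 RPM), E2 and E15 (0.147 each) stood above E10 (0.0723), though on 4 tags each against 2, and with CpG E15 was highest (0.113). With both agents E10 (0.796 RPM) was followed by E15 (0.164), E8 (0.150) and E4 (0.126), ahead of E12 (0.0999). E10 alone held 28.5% of all tags in the window. Total tags per enhancer ran from 10 for E13 to 131 for E10, so most values rest on a handful of tags; where a group of 2 libraries held none, a count of 0 still allows a level of up to 0.109 to 0.116 RPM (3 tags over the pair).

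Summed over its 15 enhancers, the window was highest with IFN-γ, intermediate with both agents and lowest with CpG alone. Unstimulated libraries stood at 0.868 and 0.595 RPM. With IFN-γ the sum was 2.80 and 2.31 RPM at 3 h, 3.54 and 5.09 at 9 h, and 2.65 and 3.44 at 15 h. With CpG it was 0.448 and 0.305 RPM at 3 h, 0.149 and 0.446 at 9 h, and 0.384 and 0.313 at 15 h. With both agents it was 1.66 and 2.44 RPM at 3 h, 1.59 and 1.67 at 9 h, and 1.77 and 1.79 at 15 h. All 12 libraries with IFN-γ (1.59 to 5.09 RPM) lay above all 8 without it (0.149 to 0.868 RPM), and the 6 CpG libraries lay below both unstimulated ones.

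As ratios of group means to the unstimulated 0.732 ± 0.193 RPM, the window sum was 3.49-fold at 3 h, 5.89-fold at 9 h and 4.16-fold at 15 h of IFN-γ. The ratios with both agents were 2.80, 2.23 and 2.44, and those with CpG were 0.515, 0.406 and 0.477. Scaled by TMM on the enhancer tags instead of whole-library totals, they were 4.78, 6.53 and 5.22 with IFN-γ, 2.74, 2.78 and 2.31 with both agents, and 0.634, 0.419 and 0.508 with CpG. The order IFN-γ, both, unstimulated, CpG was thus the same on both scales at each time. The SDs of the IFN-γ groups (0.345, 1.10 and 0.562 RPM) rest on 2 libraries each. Both 9 h libraries lay above those of 3 and 15 h, which overlapped, and the order of times was not tested. No test was made on the sum, since its members were chosen with results known.

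The rise was not spread evenly over the window. E6 to E14, a run of 107980 bp picked out after the values were seen, held 72.2% of the window's tags. Those 9 enhancers had 324 tags in the 12 libraries with IFN-γ, between 14 and 58 in each, and 8 tags in the 8 libraries without it. Unstimulated replicate 1 held 5 of those 8 tags, replicate 2 held none, and the 6 CpG libraries held the other 3. In RPM, the run stood at 0.181 ± 0.256 in unstimulated cells, at 1.87 ± 0.462, 3.55 ± 0.938 and 2.48 ± 0.194 with IFN-γ at 3, 9 and 15 h, and at 1.79 ± 0.391, 1.10 ± 0.0495 and 1.25 ± 0.219 with both agents. With CpG alone its level was 0.0747 ± 0.106 RPM (3 h) and 0.0371 ± 0.0525 (9 h), with no tag at 15 h.

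Summed, the other 6 enhancers, E1 to E5 and E15, showed no such separation. They are what remained once the run had been picked by its values, a choice that favours this difference. Their sum lay between 0.144 and 0.872 RPM in the libraries with IFN-γ and between 0.149 and 0.595 RPM in those without. Unstimulated cells stood at 0.551 ± 0.0631 RPM, IFN-γ at 0.687 ± 0.116, 0.761 ± 0.157 and 0.563 ± 0.368, and both agents at 0.257 ± 0.159, 0.531 ± 0.109 and 0.535 ± 0.235. The CpG groups (0.302 ± 0.00471, 0.260 ± 0.157 and 0.349 ± 0.0503 RPM) were below the unstimulated one, with none of their libraries reaching it.

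**Figure D1:**
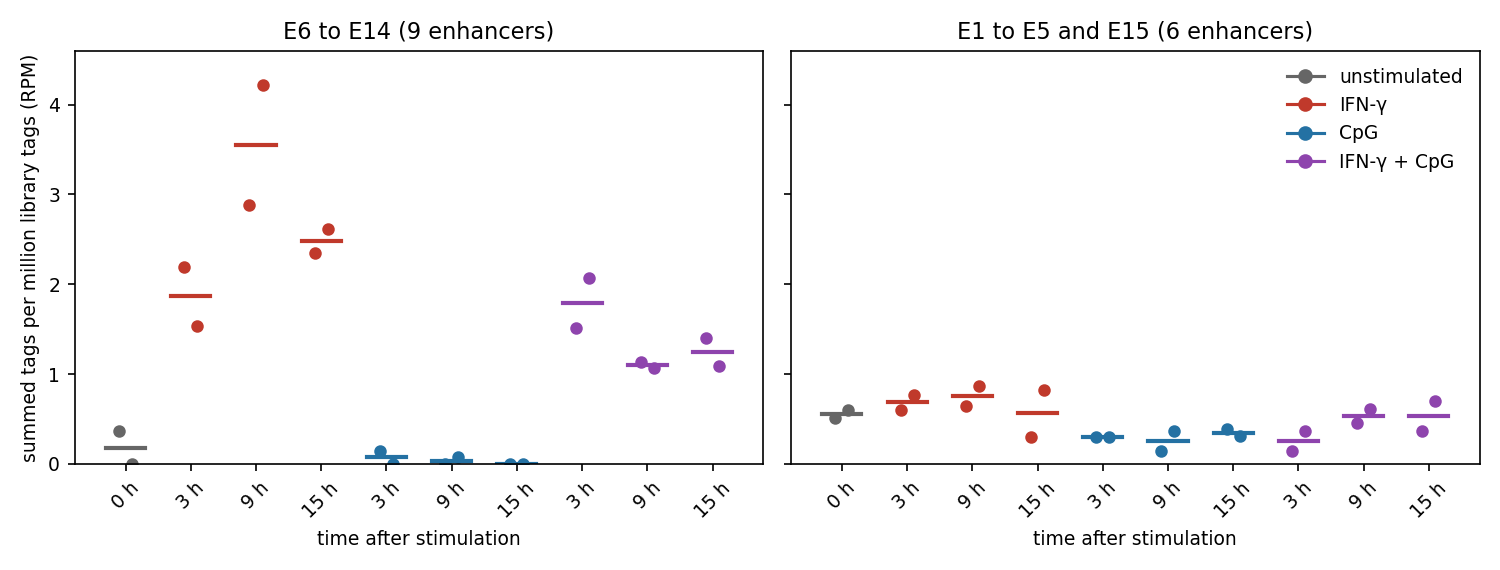
Summed level in RPM (vertical axis, linear from 0) of E6 to E14 (left panel) and of E1 to E5 and E15 (right panel) in each group, ordered by stimulus and hours after stimulation (horizontal axis). Points are single libraries and bars are means of 2; on the left the 12 libraries with IFN-γ lie between 1.07 and 4.21 RPM and the 8 others between 0 and 0.362, while on the right both kinds overlap.

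**Figure D2:**
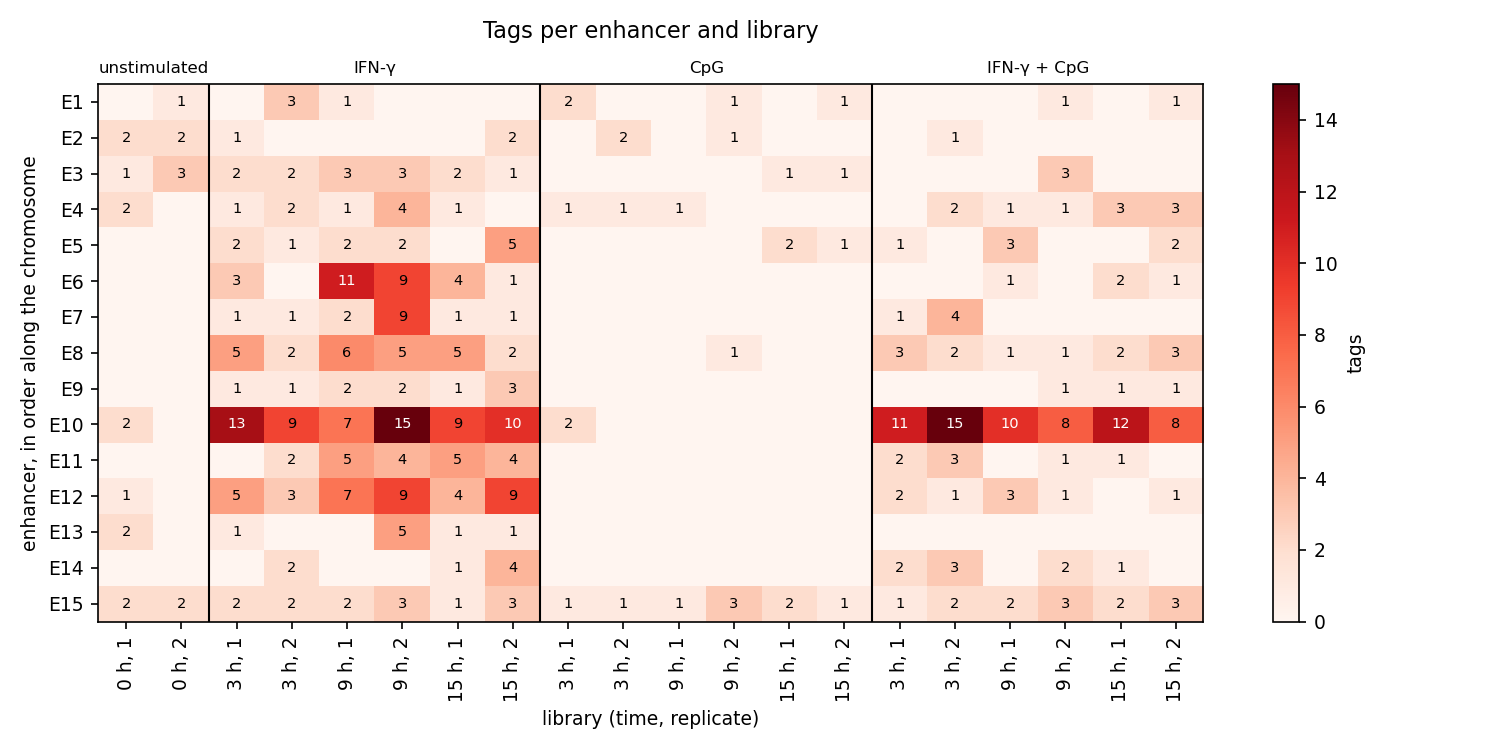
Tags of each enhancer (rows, E1 to E15 in chromosomal order) in each of the 20 libraries (columns, by stimulus, hour and replicate), shaded from 0 to 15 tags with the count written where it is above 0. E10 holds 7 to 15 tags in every library with IFN-γ and at most 2 in any other, while E15 holds 1 to 3 tags in all 20.

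E10, the highest enhancer of the window, was present in every library with IFN-γ and nearly silent elsewhere. Its tags were 2 and 0 in unstimulated cells. They were 13 and 9 at 3 h, 7 and 15 at 9 h, and 9 and 10 at 15 h of IFN-γ, and 11 and 15, 10 and 8, and 12 and 8 at the same times with both agents. With CpG alone there were 2 and 0 tags at 3 h and none at 9 or 15 h. The lowest library with IFN-γ held 7 tags and the highest without it held 2, so the groups did not overlap.

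As levels, E10 went from 0.0723 ± 0.102 RPM to 0.837 ± 0.205, 0.797 ± 0.413 and 0.714 ± 0.0478 with IFN-γ at 3, 9 and 15 h. Over pooled tags these are ratios of 11.4 (95% counting interval 2.81 to 100.3), 10.9 (2.67 to 95.2) and 9.74 (2.35 to 86.3) to unstimulated cells. The upper limits are wide because the denominator is 2 tags; such intervals cover counting error only. With both agents the levels were 0.951 ± 0.222, 0.683 ± 0.105 and 0.754 ± 0.185 RPM, with ratios of 12.9 (3.24 to 113), 9.31 (2.23 to 82.7) and 10.3 (2.51 to 91.2). The edgeR log2 changes for IFN-γ were 3.78 ± 0.82 (SE; adjusted p = 2.86e-04), 3.41 ± 0.84 (0.00110) and 3.44 ± 0.85 (0.00174). For both agents they were 3.50 ± 0.81 (edgeR adjusted p = 3.13e-04), 3.35 ± 0.86 (0.00174) and 3.12 ± 0.86 (0.00313). Without unstimulated replicate 2, which held no E10 tag, 4 of these 6 calls were lost: at 9 and 15 h the edgeR adjusted p became 0.0579 and 0.0670 for IFN-γ, and 0.0610 and 0.0885 for both agents. The log2 changes without that library were 2.92, 2.55 and 2.58 for IFN-γ and 2.63, 2.49 and 2.26 for both agents at 3, 9 and 15 h. Without unstimulated replicate 1 the control held no E10 tag, so that the fold has no fixed size; all 6 calls were kept. The call for IFN-γ at 9 h was also lost without IFN-γ 9 h replicate 2 (edgeR adjusted p = 0.0575), the library with 15 tags.

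Set against CpG instead of unstimulated cells, E10 with IFN-γ was 11.1-fold higher at 3 h (95% counting interval 2.73 to 97.4), and the lower bounds at 9 and 15 h were at least 7.14-fold and 6.14-fold higher. A bound marked "at least" puts 3 tags in the place of a group of 2 libraries with none. These comparisons are matched in time. The edgeR adjusted p was 0.00184 at 3 h, 3.42e-05 at 9 h and 8.99e-05 at 15 h. With both agents, E10 was 12.6-fold higher than with CpG alone at 3 h (3.15 to 109), with bounds of at least 6.12-fold at 9 h and 6.52-fold at 15 h, with edgeR adjusted p of 0.00303, 1.75e-04 and 7.59e-04. Without CpG 3 h replicate 2 the calls at 3 h were lost for IFN-γ over CpG (log2 difference of CpG from IFN-γ -2.55, edgeR adjusted p = 0.0868) and for both agents over CpG (2.26, 0.125), and without CpG 15 h replicate 1 the call for both agents at 15 h was lost (0.0520).

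E12, the next highest with IFN-γ alone, had tags in 11 of the 12 libraries with IFN-γ and in 1 of the 8 without. It held 1 and 0 tags in unstimulated cells, 5 and 3, 7 and 9, and 4 and 9 with IFN-γ at 3, 9 and 15 h, 2 and 1, 3 and 1, and 0 and 1 with both agents, and none with CpG. Every IFN-γ library thus exceeded both unstimulated ones, and the libraries with both agents overlapped them. Its level rose from 0.0362 ± 0.0511 RPM to 0.580 ± 0.105 at 9 h, a ratio of 15.8 (95% counting interval 2.45 to 662; edgeR adjusted p = 0.0108), and to 0.488 ± 0.262 at 15 h, a ratio of 13.3 (2.00 to 567; 0.0190). At 3 h it stood at 0.304 ± 0.104 RPM, a ratio of 8.32 (1.11 to 369), which did not pass the test (edgeR adjusted p = 0.0904). Compared with CpG it was at least 2.69-fold, 5.19-fold and 4.20-fold higher at the 3 times (edgeR adjusted p = 0.0404, 0.00212 and 0.00537).

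E8 had a tag in each of the 12 libraries with IFN-γ and 1 tag in those without. With IFN-γ it held 5 and 2 tags at 3 h, 6 and 5 at 9 h, and 5 and 2 at 15 h, against none in unstimulated cells. With CpG it held 0 and 1 at 9 h and none at 3 or 15 h, and with both agents it held 3 and 2, 1 and 1, and 2 and 3. No library with IFN-γ alone overlapped a library without IFN-γ, whereas 2 libraries with both agents held 1 tag, as did the highest without IFN-γ. The level with IFN-γ was 0.266 ± 0.158, 0.398 ± 0.0494 and 0.264 ± 0.162 RPM at 3, 9 and 15 h. These are at least 2.43-fold, 3.62-fold and 2.39-fold over unstimulated cells (edgeR adjusted p = 0.0476, 0.0143 and 0.0435). Compared with CpG at 15 h, IFN-γ was at least 2.26-fold higher (edgeR adjusted p = 0.0490); the comparisons at 3 h (0.0686) and 9 h (0.0589) did not pass.

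E6 held most of its tags at 9 h of IFN-γ. The 9 h level was not tested against 3 or 15 h. E6 had enough tags to be tested only through its 2 libraries with IFN-γ at 9 h, so its 9 h calls describe values that selected it. With IFN-γ it held 3 and 0 tags at 3 h, 11 and 9 at 9 h, and 4 and 1 at 15 h. It held none in unstimulated cells and none with CpG, and with both agents it held none at 3 h, 1 and 0 at 9 h, and 2 and 1 at 15 h. Both 9 h libraries stood above every other library. Its level at 9 h was 0.724 ± 0.0990 RPM, at least 6.58-fold over unstimulated cells (edgeR adjusted p = 0.00207) and at least 6.49-fold over CpG at 9 h (0.00229), against 0.113 ± 0.160 at 3 h and 0.189 ± 0.161 at 15 h.

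With IFN-γ alone, E11, 428 bp from E12, was low at 3 h and higher afterwards, whereas with both agents it was highest at 3 h. Neither difference between 3 and 15 h passed the test (edgeR adjusted p = 0.552 with IFN-γ and 0.432 with both agents). The tags of E11 with IFN-γ were 0 and 2 at 3 h, 5 and 4 at 9 h, and 5 and 4 at 15 h, and with both agents they were 2 and 3, 0 and 1, and 1 and 0. No library without IFN-γ held a tag of E11. With IFN-γ, its level of 0.0769 ± 0.109 RPM at 3 h compared with 0.326 ± 0.0497 and 0.339 ± 0.0557 at the later times. The later levels were at least 2.96-fold and 3.08-fold over unstimulated cells (edgeR adjusted p = 0.0372 and 0.0330). Against CpG the edgeR adjusted p was 0.0368 at 9 h and 0.0374 at 15 h. That comparison sets the same IFN-γ tags against another group without a tag, so it adds no separate support.

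The calls of E6, E8, E11 and E12 rest on few tags, and leaving out 1 library ended many of them. Such fits kept the enhancers tested with all libraries. An enhancer thus stayed in the test even without a library that had given it enough tags to be tested. The 3 calls of E8 over unstimulated cells were lost without any 1 of the 4 libraries compared (edgeR adjusted p 0.0560 to 0.259), except that the 9 h call was kept without IFN-γ 9 h replicate 2 (0.0360); its call over CpG was lost in each fit (0.0640 to 0.247). All 4 calls of E11 were lost in each such fit (0.0784 to 0.170). The calls of E6 at 9 h over unstimulated cells and over CpG were kept in each (edgeR adjusted p 0.0102 to 0.0467). The call of E12 over CpG was kept in each fit at 9 h (0.0131 to 0.0374) and lost in each at 3 h (0.0793 to 0.184), while at 15 h it was kept only without IFN-γ replicate 1 (0.00919, against 0.0561 to 0.0954). Over unstimulated cells, the 9 h call of E12 was lost without unstimulated replicate 2 (edgeR adjusted p = 0.124) or IFN-γ 9 h replicate 2 (0.0674). Its 15 h call was lost without unstimulated replicate 1 (0.0703) or 2 (0.154) or IFN-γ 15 h replicate 2 (0.228).

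E7, E9, E13 and E14 held too few tags to be tested. E7 had 15 tags with IFN-γ, 5 with both agents and none in the 8 other libraries; 9 of its 20 tags came from IFN-γ 9 h replicate 2. E9 had 10 tags with IFN-γ in all 6 libraries, 3 with both agents and none elsewhere. E14 had 7 tags with IFN-γ and 8 with both agents, in 7 of 12 libraries, and none elsewhere. E13 had 2 tags in unstimulated replicate 1. Unlike the other enhancers of E6 to E14, it had none with both agents, and 5 of its 8 tags with IFN-γ came from IFN-γ 9 h replicate 2. Pooled over the 6 libraries of each stimulus, IFN-γ exceeded CpG at least 4.92-fold for E7, 3.28-fold for E9, 2.62-fold for E13 and 2.30-fold for E14. A count of 0 over the 6 CpG libraries allows a level of up to 0.0379 RPM.

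E15, the narrowest member and the next highest to E10 per kb, was the one enhancer with a tag in all 20 libraries. It held 2 and 2 tags in unstimulated cells, and with IFN-γ 2 and 2, 2 and 3, and 1 and 3. With CpG it held 1 and 1, 1 and 3, and 2 and 1, and with both agents 1 and 2, 2 and 3, and 2 and 3. All groups overlapped within this range of 1 to 3 tags. Its level was 0.147 ± 0.00298 RPM in unstimulated cells, up to 0.181 with IFN-γ and 0.191 with both agents, and between 0.0755 and 0.149 with CpG. Pooled, IFN-γ stood at 1.42 times CpG (95% counting interval 0.562 to 3.77), an interval that holds both no difference and a more than 3-fold one.

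E3 and E4, which lay 5973 bp apart, had tags in unstimulated cells as well. E3 held 1 and 3 tags unstimulated, 2 and 2, 3 and 3, and 2 and 1 with IFN-γ, none at 3 or 9 h and 1 and 1 at 15 h with CpG, and 3 in a single library with both agents (9 h replicate 2). Its IFN-γ libraries lay within the range of the unstimulated ones, and pooled IFN-γ was 6.40 times CpG (95% counting interval 1.45 to 58.4). E4 held 2 and 0 tags unstimulated, 1 and 2, 1 and 4, and 1 and 0 with IFN-γ, 1 and 1, 1 and 0, and none with CpG, and 0 and 2, 1 and 1, and 3 and 3 with both agents. Its groups overlapped, with pooled IFN-γ at 2.95 times CpG (0.737 to 17.0). E5 had 12 tags with IFN-γ, 6 with both agents, 3 with CpG and none unstimulated. For E5, pooled IFN-γ was 3.94 times CpG (95% counting interval 1.06 to 21.7). E1 had 1, 4, 4 and 2 tags, and E2 had 4, 3, 3 and 1, in unstimulated cells, IFN-γ, CpG and both agents.

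**Figure D3:**
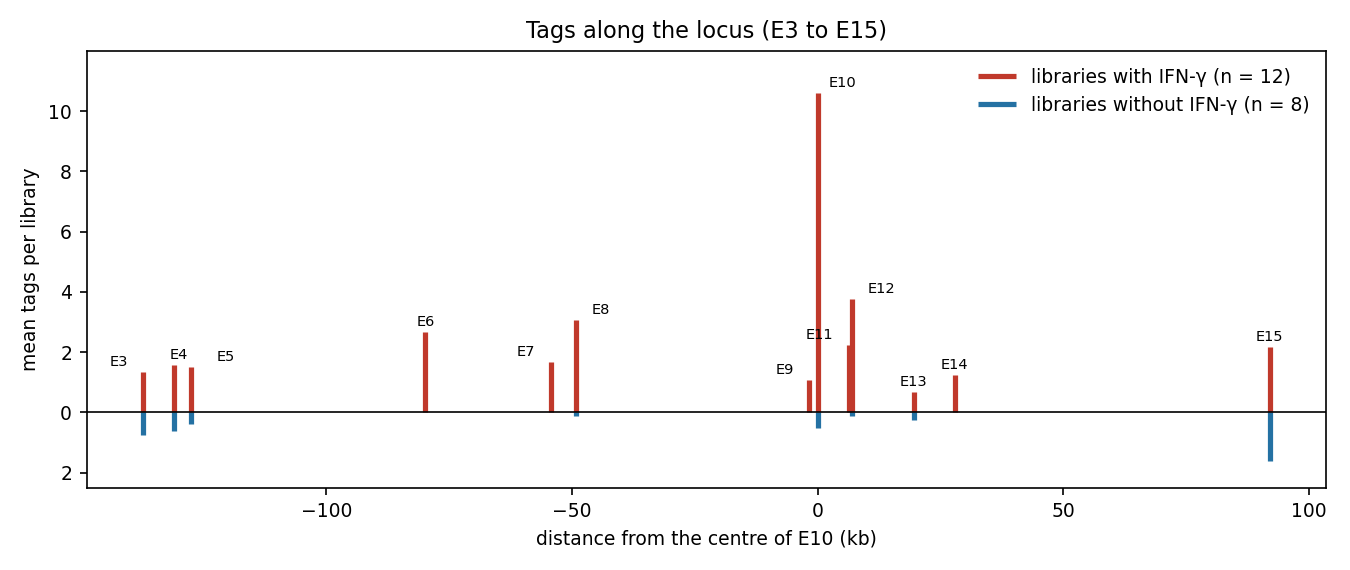
Mean tags per library (vertical axis) of E3 to E15 against distance from the centre of E10 in kb (horizontal axis); red bars going up are the 12 libraries with IFN-γ and blue bars going down the 8 without. E1 and E2 lie farther off and are not drawn; E10 has 127 tags above the line and 4 below, whereas E15 has 26 and 13.

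The counts of called enhancers have to be read with the filter on low counts in mind. Only 5 of the 15 enhancers, E6, E8, E10, E11 and E12, had enough tags to be tested. Libraries that reached the filter's level numbered 2 for E6, 3 for E8, 12 for E10, 2 for E11 and 4 for E12. Each of them was a library with IFN-γ, and for E6, E8, E11 and E12 each was a library with IFN-γ alone. These 5 passed only through the stimulus in which they were high and had to differ, so their counts are no evidence of a direction. For E6, E8, E11 and E12 the same holds in the comparison of both agents with IFN-γ alone.

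Against unstimulated cells, IFN-γ raised 2 of the 5 tested enhancers at 3 h (E8 and E10), all 5 at 9 h and 4 at 15 h (E8, E10, E11 and E12). Among all tested enhancers, 7.59%, 12.9% and 10.1% were called higher at those times. Scaled by whole-library totals, the members called with IFN-γ numbered 1 at 3 h and 2 at 15 h, and the stricter filter, which only E10 passed, left 1 at each time. DESeq2 called 1, E10, at each time and gave no adjusted p for the other 4. With both agents, 1 of the 5 was called higher at each time, E10, beside 18.4%, 14.1% and 15.6% of all. With CpG none of the 5 was called at 3, 9 or 15 h by edgeR, with none at an unadjusted p under 0.05 and none by limma. DESeq2, which gave an adjusted p to E10 alone, did not call it. These tests say little. E6 and E11 held no tag in unstimulated or CpG libraries, and E8, E10 and E12 held at most 2 in any, so a fall could hardly have been called. Among all tested enhancers, 1.54%, 6.98% and 7.59% were called in either direction. Compared with CpG at the same time, IFN-γ was called higher at 2 of the 5 at 3 h (E10 and E12), 4 at 9 h (E6, E10, E11 and E12) and 4 at 15 h (E8, E10, E11 and E12). DESeq2 called E10 at each time and did not call E12 at 15 h, and gave the others no adjusted p. The same calls covered 6.20%, 12.2% and 9.89% of all tested enhancers. Both agents were called higher than CpG at 1 of the 5 at each time, E10, beside 11.4%, 4.66% and 3.40%.

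Adding CpG to IFN-γ went with a lower level at most of E6 to E14 but not at E10. Pooled over the times, both agents stood at 0.143 times IFN-γ alone for E6 (95% counting interval 0.0366 to 0.410), 0.217 for E12 (0.0873 to 0.474) and 0.351 for E11 (0.126 to 0.865). The ratio was 0.335 for E7 (0.0951 to 0.969), 0.482 for E8 (0.221 to 0.995) and 0.301 for E9 (0.0533 to 1.17), and E13 was at least 2.66-fold lower. For E10 it was 1.02 (0.709 to 1.47), for E14 1.15 (0.364 to 3.72) and for E15, outside the run, 1.00 (0.429 to 2.35). These intervals treat tags as independent and cover no spread between replicates.

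By time, the 8 enhancers of the run other than E10 held 16 and 11 tags with IFN-γ and 10 and 13 with both agents at 3 h, so the tag counts overlapped. That overlap depends on the scale. The enhancer tags of these libraries were 17401 and 12879 with IFN-γ and 22284 and 29794 with both agents, and relative to them the groups did not overlap. At 9 h the 8 enhancers held 33 and 43 tags against 5 and 6, and at 15 h 22 and 25 against 7 and 6, with no overlap. Their summed level was 0.819, 0.152 and 0.278 times that with IFN-γ alone at the 3 times, or 0.592, 0.170 and 0.212 with TMM scaling. E10's ratio was 1.14, 0.856 and 1.06, or 0.819, 0.982 and 0.813 with TMM scaling, so that its direction at 3 and 15 h turned with the scale. E10 therefore made up 23.6% of the window's tags with IFN-γ (Wilson 95% interval 18.9% to 29.0%) and 43.8% with both agents (36.0% to 51.9%). The difference between E10 and its neighbours was not tested, since the 8 were grouped after their values were seen.

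**Figure D4:**
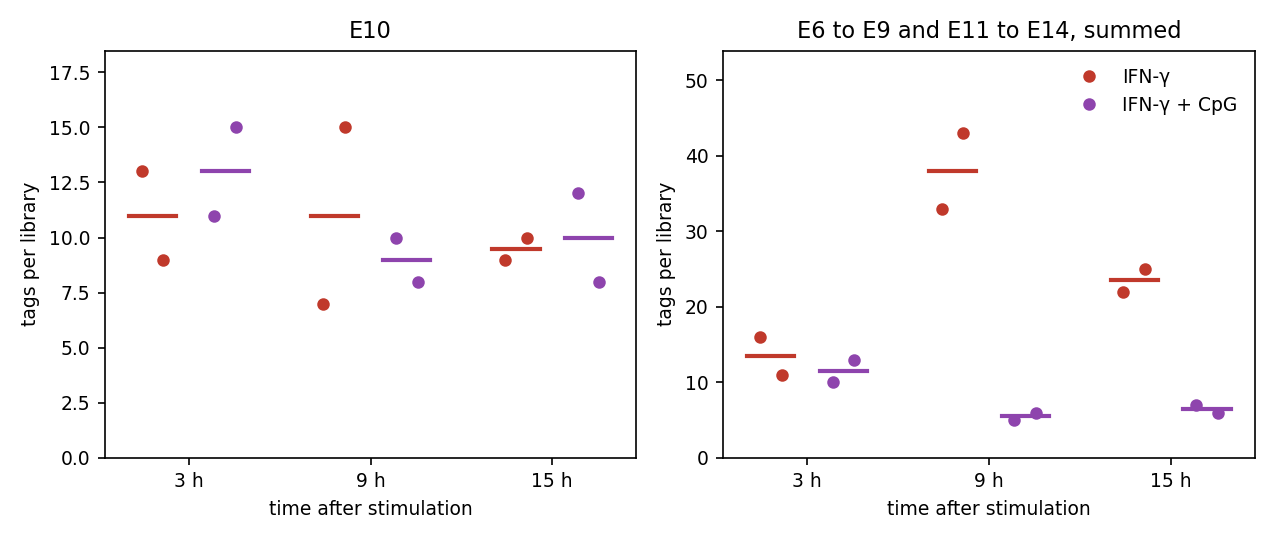
Tags per library (vertical axis, linear from 0, scaled separately in each panel) at 3, 9 and 15 h after stimulation (horizontal axis) with IFN-γ alone and with IFN-γ and CpG, for E10 (left) and for the sum of E6 to E9 and E11 to E14 (right). Points are single libraries and bars are means of 2; E10 lies between 7 and 15 tags with either treatment, while the sum is 33 and 43 against 5 and 6 tags at 9 h and 22 and 25 against 7 and 6 at 15 h.

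In the edgeR test of both agents against IFN-γ alone, none of the 5 was called lower at 3 h, with none at an unadjusted p under 0.05 and none by DESeq2 or limma. E6 was called at 9 h and E12 at 15 h, beside 0.251%, 2.26% and 4.01% of all tested enhancers called lower at 3, 9 and 15 h. However, E6, E8, E11 and E12 passed the filter only through libraries with IFN-γ alone. A lower level with both agents was thus favoured by the filter, and these calls are no evidence of a direction. At 9 and 15 h limma (pseudocount 0.5) called 3 and 2 of the 5, and DESeq2 called 0 and 0, giving an adjusted p to E10 alone. E6 held 1 tag with both agents against 20 with IFN-γ at 9 h, a ratio of 0.0524 (95% counting interval 0.00126 to 0.328); the log2 change was -3.87, with an SE of 1.29 and an edgeR adjusted p of 0.0447. E12 held 1 tag against 13 at 15 h, a ratio of 0.0775 (0.00182 to 0.516); the log2 change was -3.76, with an SE of 1.18 and an edgeR adjusted p of 0.0278. The E6 call was lost without any 1 of the 4 libraries (edgeR adjusted p 0.141 to 0.269), and that of E12 in all such fits (0.0904 to 0.262) but the one without IFN-γ 15 h replicate 1 (0.0439). E11 at 15 h, with 1 tag against 9, had a ratio of 0.112 (0.00255 to 0.808) and did not pass (edgeR adjusted p = 0.124). For E10 the log2 change was -0.29 ± 0.50 at 3 h (edgeR adjusted p = 0.858), -0.06 ± 0.54 at 9 h (0.964) and -0.32 ± 0.54 at 15 h (0.732).

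Whether both agents together differed from the sum of their separate log2 changes was tested as an interaction. None of the 5 was called at 3, 9 or 15 h by edgeR, with none at an unadjusted p under 0.05, none by DESeq2 and none by limma at a pseudocount of 0.5 (1 at 9 h with a pseudocount of 2), beside 0.0358%, 0% and 0.107% of all tested enhancers. For E10 the interaction at 3 h was -0.58 ± 1.53 (SE; edgeR adjusted p = 1.00), an error too wide to show even a several-fold departure. The CpG groups of E10 at 9 and 15 h, all CpG groups of E12, and the unstimulated group of E6, E8 and E11 held no tag, so these tests say little and their estimates are not given. Between 3 and 15 h none of the 5 was called with IFN-γ, with CpG or with both agents, again with none at an unadjusted p under 0.05 and none by limma, beside 1.04%, 0.645% and 9.28% of all. With CpG, E6, E8, E11 and E12 held no tag at either time, so the test could show no change for them. DESeq2 gave an adjusted p to E10 alone with CpG and with both agents, where it did not call it, and to none of the 5 with IFN-γ. E10 changed by -0.35 ± 0.53 with IFN-γ (edgeR adjusted p = 0.826) and by -0.38 ± 0.51 with both agents (0.698).

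The surroundings of the window behaved otherwise. The 1 Mb before it held 19 enhancers, whose summed level was 1.45 and 2.16 RPM in unstimulated libraries, 1.59 to 3.41 with IFN-γ, 1.53 to 3.52 with CpG and 3.18 to 10.9 with both agents. IFN-γ and CpG libraries overlapped there and those with both agents reached higher at 3 and 15 h, in contrast to the order inside the window. The 10.9 RPM came from 1 library at 3 h, whose replicate stood at 5.05. At 9 h the libraries with both agents (3.18 and 3.42 RPM) lay below the highest with CpG. The 1 Mb after it held no enhancer of the table. The nearest enhancers outside the limits were chr5:99603394-99603691 with 10 tags, of which 8 came with both agents, and chr5:102115781-102116034 with 12 tags, 3 in each stimulus and in unstimulated cells. Just inside the limits stood E1 with 11 tags and E15 with 39. Of the 1559 windows of this size that held any enhancer, the median held 5 and 217 held at least 15.

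As a share of all enhancer tags, the window took 0.0473% in unstimulated cells, 0.221%, 0.281% and 0.236% with IFN-γ, 0.0289%, 0.0186% and 0.0231% with CpG, and 0.108%, 0.120% and 0.0961% with both agents. Likeness was Pearson's r over the 20 libraries between log2(RPM + 0.5) of a tested enhancer elsewhere and log2 of the window sum with nothing added. It is a description in which all points share the library depth. The 5 enhancers elsewhere whose levels followed the window sum most closely were ranked by this r. They were chr13:55170446-55170945 (r = 0.892), chr9:47556282-47556703 (0.883), chr3:121164067-121164375 (0.876), chr7:89780744-89781448 (0.866) and chr10:85960080-85960361 (0.866). The closest, on chromosome 13, stood at 0.0372 RPM in unstimulated cells, 1.45 with IFN-γ, 0.101 with CpG and 1.14 with both agents. That on chromosome 3 was without a tag in unstimulated cells, at 2.17 RPM with IFN-γ, 0.0879 with CpG and 2.07 with both. In these 2 the level with both agents was nearer to that with IFN-γ alone than in the window sum, which averaged 1.82 RPM with both agents and 3.30 with IFN-γ.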

How the data were processed

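The authors deposited 2 tables over the same 11222 enhancers and 20 nAnT-iCAGE libraries: raw tag counts, and values relative to library size. Per the submitters' processing notes, reads were handled with Trimmomatic 0.38, HISAT2 2.1.0, BWA 0.7.10 and FastQC 0.11.5 on the mm39 build; no source used here says how enhancers were called. The deposited scaled table is in RPM: raw counts divided by it gave 1 constant per library, its total of mapped tags (12776280 to 13855472). Every column was matched to a sample title, and 0 columns were left unmatched.

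Groups and replicate numbers came from titles and characteristics. Counts were tested with edgeR 4.0.16 (R 4.3.3; TMM, robust quasi-likelihood F-test, 1 coefficient per group, 10 residual degrees of freedom) on 2792 enhancers passing filterByExpr (minimum count 5, minimum total 15), with Benjamini-Hochberg adjustment over all. Standard errors are the log2 change divided by the root of F. Ratios of pooled tags carry exact 95% counting intervals; a group without a tag is put at 3 tags. Named members were the 8 highest by mean RPM, any called in a comparison and the 5 most alike elsewhere. Members and lists were chosen with earlier results of these data known.

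Alternatives were a stricter filter (10 and 30) or none, scaling by library totals, DESeq2 1.42.0, limma 3.58.1 with log2(RPM + 0.5) (or with 0.1 or 2 added), a block for the replicate number, fits restricted to the groups compared, and leaving out each library. In the edgeR fit of all libraries, p-values rest on the spread between the 2 libraries of a group, pooled over the 10 groups. That spread is also shared in part over enhancers, so it is not that of the compared groups alone.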

Additional observations from a re-analysis of the deposited data

How the results depend on the processing

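Tag depth limits the tests: 10 of the 15 enhancers could not be tested, and no enhancer but E10 passed the stricter filter. Of 361 refits of the 29 single calls, 275 kept the call, 86 lost it and 0 turned direction. Refits in which the member failed the filter or had no adjusted p are not among the 361. For E6, E8, E11 and E12 the stricter filter, nearly all DESeq2 fits and some fits of the compared groups alone were thus not counted as lost. E10 kept its 12 calls in 120 of 120 refits that held all libraries of the groups compared, and in 40 of 48 with 1 left out. DESeq2 gave no adjusted p for E6, E8 and E11 in 20 of 24 comparisons and for E12 in 16. Over the 9 comparisons with unstimulated cells, the median change (log2) over all tested enhancers was 0 to 0.32 with TMM and -0.30 to 0.40 with whole-library totals.

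The number called higher with IFN-γ at 3 h went from 2 to 1 with whole-library totals, no filter, the stricter filter, the replicate block, limma at 0.5 or 2 and the compared groups alone. At 9 h it went from 5 to 1 with the stricter filter and 3 with the groups alone. At 15 h it went from 4 to 2 with whole-library totals and 1 with no filter, the stricter filter or the groups alone. For both agents it was 2 instead of 1 with limma at 0.1, over unstimulated cells at 3 and 15 h and over CpG at 3 h. IFN-γ over CpG at 3 h went from 2 to 1 with whole-library totals, either filter, limma at 2 and the groups alone, at 9 h from 4 to 1 with the stricter filter, and at 15 h from 4 to 2 with whole-library totals or no filter and 1 with DESeq2, the stricter filter or the groups alone. Both agents under IFN-γ gave 0 instead of 1 at 9 h with either filter change, 3 with limma at 0.5 or 2 and 2 at 0.1. At 15 h they gave 0 with whole-library totals, either filter change or the groups alone and 2 with limma at each pseudocount. The interaction at 9 h gave 1 instead of 0 with limma at 2.

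Without 1 library, the number called with IFN-γ ranged from 1 to 1 (3 h), 1 to 3 (9 h) and 0 to 2 (15 h). With both agents it ranged from 1 to 1 (3 h), then 0 to 1 (later times). Relative to CpG, the IFN-γ count ranged from 0 to 1 (3 h), 3 to 3 (9 h), 1 to 2 (15 h), the count for both agents from 0 to 1 (3 and 15 h), 1 to 1 (9 h). Both agents under IFN-γ gave 0 to 0 (3 and 9 h), 0 to 1 (15 h).

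The window sum over unstimulated cells at 3 h of IFN-γ was 4.78 with TMM. Over the tested enhancers alone it was 14.7, 26.0 and 18.4 with IFN-γ, 13.1, 9.09 and 10.45 with both agents and 0 with CpG at 15 h; these are no exact folds, since the unstimulated cells held 3 tags in replicate 1 and none in replicate 2, CpG at 15 h held none, and the filter chose these enhancers through libraries with IFN-γ. Without E10 it was 1.67, 1.44 and 1.56 with both agents. Without 1 library it was 2.94 to 4.29, 4.83 to 7.24, 3.51 to 5.11 with IFN-γ at the successive times, 0.417 to 0.633, 0.204 to 0.609, 0.402 to 0.586 with CpG, 2.27 to 3.44, 1.88 to 2.74, 2.05 to 2.99 with both agents. Replicate numbers showed no pairing of the libraries: over 45 pairs of groups the correlation of same-numbered deviations was -0.05 to 0.05. With few tags per enhancer, counting error draws such correlations toward 0, so a pairing could have gone unseen. The cause of these changes was not tested.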
